A study of Mus musculus with 9 samples.

Results

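The genes described here encode the β subunits of the sodium pump, Atp1b1, Atp1b2 and Atp1b3, and members of the FXYD family of pump regulators, Fxyd1, Fxyd5 and Fxyd6. They were chosen by gene name and comprised 6 of the 52025 genes listed in the FPKM tables, and all 6 were among the 15495 genes tested. Ovaries of juvenile Kunming mice, which the labels describe without any treatment or engineered allele, were collected on postnatal day (PD) 14, 15 and 16, with 3 libraries for each day and 9 in all. The study followed these days because the follicular antrum, the fluid-filled cavity of the follicle, first forms then, and the sodium pump was among the transporters it examined in this setting. Granulosa cells are named as the source in the labels, with ovary as the tissue, but markers of other cells were present in every library. The summed FPKM of 8 oocyte markers ran from 939 to 1334. That of 7 theca and interstitial markers ran from 1149 to 2209, and that of 8 granulosa markers from 2524 to 3288. Most of the theca and interstitial sum was Hsd3b1 (1062 to 2091 FPKM), and most of the granulosa sum was Inha (1780 to 2629 FPKM). The libraries are therefore treated as whole ovary. In such tissue, fewer cells of a type and less RNA per cell cannot be told apart.

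The sodium pump is a membrane enzyme that uses ATP to move sodium out of the cell and potassium into it. Its catalytic α subunit does the transport, whereas the glycosylated β subunit is needed for folding, delivery to the membrane and contact between neighbouring cells. FXYD proteins are short single-span proteins that attach to the pump and change its affinity for ions in a manner that depends on the tissue. In epithelia the pump sets up the sodium gradient that other carriers and water movement depend on.

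Library depth, as derived from the FPKM step of a single fragment, was 20.4 to 28.7 M fragments, and 14590 to 14923 genes per library had an FPKM above 1. FPKM divides the fragments of a gene by its transcript length and by the depth of the library, so levels of different genes can be set side by side within a library. A gene was called when its adjusted p in limma was under 0.05. No library pair was identical, and the study describes the libraries as biologically independent ovaries.

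Fxyd6 was the only one of the 6 genes that passed the test in any comparison, and it was lower on PD16 than on PD14. The start of Fxyd6 and that of Atp1b1, the gene with the highest fold on PD16 among the β subunits, are shown because these genes changed places in the order of levels. The sequences are the 250 bases before the annotated start in RefSeq (GRCm38.p6), 5′ to 3′ on the strand of the gene, with capitals for the letters GGGCGG, known as a GC box, and CCAAT on either strand.
Fxyd6, chr9:45369935-45370184, plus strand: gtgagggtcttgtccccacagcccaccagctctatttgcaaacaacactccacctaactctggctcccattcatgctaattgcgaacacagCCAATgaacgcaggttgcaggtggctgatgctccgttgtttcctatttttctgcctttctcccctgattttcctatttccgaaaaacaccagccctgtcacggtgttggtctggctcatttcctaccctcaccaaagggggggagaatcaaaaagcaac
Atp1b1, chr1:164458356-164458605, minus strand: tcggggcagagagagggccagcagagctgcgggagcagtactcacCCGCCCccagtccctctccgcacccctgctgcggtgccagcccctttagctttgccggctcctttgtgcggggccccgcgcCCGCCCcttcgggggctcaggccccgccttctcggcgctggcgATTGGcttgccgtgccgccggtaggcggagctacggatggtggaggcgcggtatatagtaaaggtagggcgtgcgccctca

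The upstream sequence of Atp1b1 was richer in G and C than that of Fxyd6, at 70.4% against 50.4%, where the median of 32851 mouse promoters was 52.4%. Atp1b1 held 2 matches to GGGCGG and Fxyd6 held 0, and 32.7% of all promoters of this length held at least 1. Both held 1 match to CCAAT, as did 33.8% of all promoters at least once. Matches to GGGCGG and CCAAT did not overlap. A match is a string of letters and was not tied to any change in level, and the absence of a match says only that these letters are not in this window.

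The β subunit genes lie on different chromosomes. In GENCODE M21 (GRCm38), Atp1b1 (ENSMUSG00000026576) spans chr1:164437109-164458355, Atp1b2 (ENSMUSG00000041329) spans chr11:69599736-69605942 and Atp1b3 (ENSMUSG00000032412) spans chr9:96332655-96364442, all on the minus strand. Fxyd6 (ENSMUSG00000066705) spans chr9:45370185-45396159 on the plus strand. Fxyd5 (ENSMUSG00000009687, chr7:31032722-31042481) and Fxyd1 (ENSMUSG00000036570, chr7:31051678-31057199) stand in a row of FXYD genes on the minus strand, with Fxyd7 between them. Between Fxyd5 and Fxyd7 there are 31 bases, and between Fxyd7 and Fxyd1 there are 210. The library kit does not mark strand, and Nme7, which overlaps the span of Atp1b1 on the opposite strand, was at 3.93 to 5.67 FPKM.

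The order of levels was led by the β subunits. Atp1b3 had a mean of 78.0 FPKM over the 9 libraries and Atp1b2 of 48.0 FPKM, which placed them above 96.3% and 93.2% of the genes tested. Fxyd6 (23.4 FPKM), Atp1b1 (20.4 FPKM) and Fxyd1 (13.0 FPKM) were in the middle of the set. Fxyd5 was far below the others with 1.39 FPKM, above 11.5% of the genes tested. On each day the libraries of neighbours in this order did not overlap, with the exception of Fxyd6 and Atp1b1 on PD15.

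**Figure D1:**
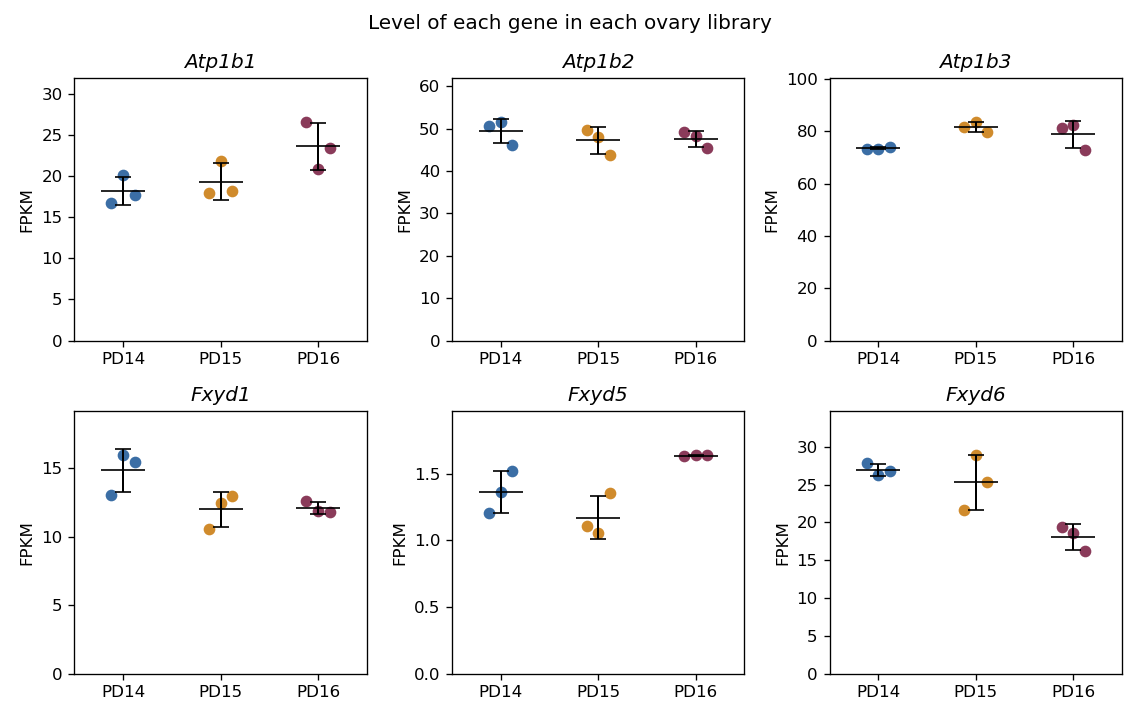
FPKM (vertical axes, from 0) of each gene in each library by day, with points for libraries, long bars for the mean and whiskers for the SD of 3 libraries. All 3 PD16 libraries of Fxyd6 sit between 16.1 and 19.4 FPKM, below every library of the other days, whereas the libraries of Atp1b2 overlap between all days.

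Among the FXYD regulators, Fxyd6 encodes phosphohippolin, a pump regulator best known from brain. On PD14 it was at 27.8, 26.2 and 26.8 FPKM, on PD15 at 21.6, 28.9 and 25.4 FPKM, and on PD16 at 19.4, 18.6 and 16.1 FPKM. The libraries of PD14 and PD15 overlapped, whereas all PD16 libraries were lower than all others. The means were 27.0 ± 0.79 FPKM on PD14, 25.3 ± 3.64 FPKM on PD15 and 18.1 ± 1.71 FPKM on PD16 (SD, n = 3). From PD14 to PD16, Fxyd6 fell by 0.56 on the log2(FPKM + 1) scale (SE 0.10, 95% interval -0.78 to -0.33, limma adjusted p = 0.0241). From PD15 to PD16 the log2 change was -0.46 (SE 0.10, limma adjusted p = 0.0786), which did not pass, and from PD14 to PD15 it was -0.10 (SE 0.10, limma adjusted p = 0.702). Across the 3 days Fxyd6 also passed limma's F test (adjusted p = 0.0398). The exact permutation test over all 280 groupings of the libraries gave p = 0.0214, which was not adjusted over the 6 genes. This exact p was 0.0571 when any 1 of the PD16 libraries was left out. The F test call held without PD15 replicate 1 or 2 and was lost in the other 7 omissions of a single library, with limma adjusted p up to 0.0957, and also without a filter on FPKM (0.106) and without the intensity trend (0.0521). The call between PD16 and PD14 was lost without a filter (limma adjusted p = 0.0676) and when PD14 replicate 1 or 3 or PD16 replicate 1, 2 or 3 was left out, with limma adjusted p from 0.0541 to 0.0839, while the log2 change stayed between -0.61 and -0.48 over all 9 omissions. Both calls were also lost with a block for replicate number, although libraries of the same number did not deviate together.

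The 659 genes called between PD16 and PD14 were 4.25% of those tested, and 1 of the 6 genes described here was called. Between PD15 and PD14 0.678% of the genes tested were called, and between PD16 and PD15 0.729%, and in limma 0 of the 6 genes passed in either comparison. At an unadjusted p under 0.05, 2 of the 6 genes passed between PD15 and PD14, 3 between PD16 and PD14 and 3 between PD16 and PD15, where 14.7%, 22.8% and 14.1% of all genes tested did. In the F test across the days 3.03% of all genes and 1 of these 6 were called.

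**Figure D2:**
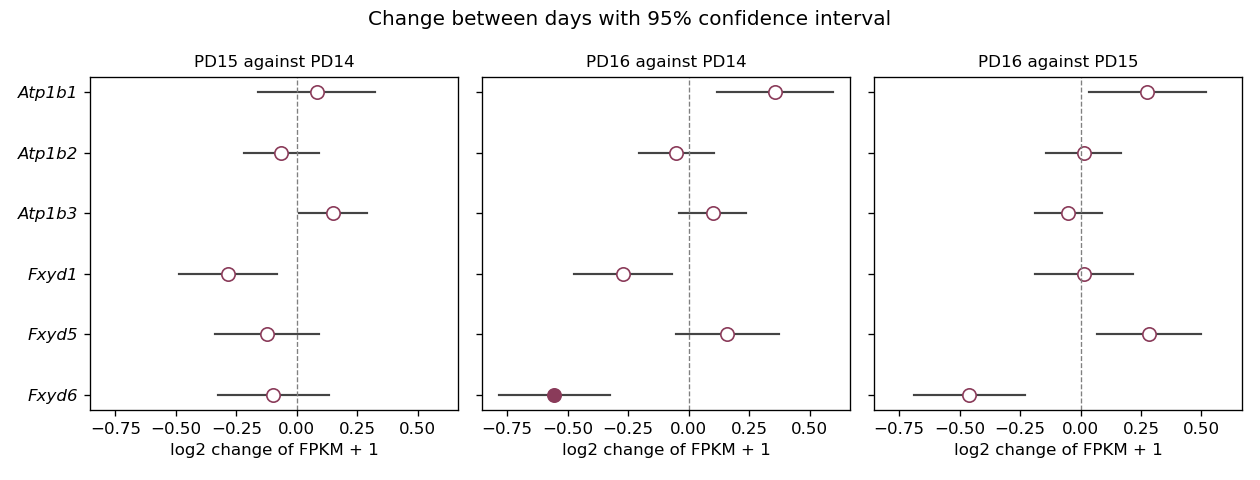
Change in log2(FPKM + 1), later day minus earlier day (horizontal axes), of each gene in the 3 comparisons, with lines for 95% confidence intervals from limma. The filled point marks the adjusted p under 0.05, which is Fxyd6 on PD16 against PD14, and open points did not pass.

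Most epithelial markers tested were lower on PD16, as Fxyd6 was. Of 8 markers of surface and oviduct epithelium, 6 were tested and 4 were called lower on PD16 than on PD14, among them the keratin Krt8 with a log2 change of -0.48 (SE 0.08, limma adjusted p = 0.0222). The other 3 were Krt18 with -0.45, Krt19 with -0.42 and Lgals7 with -0.49. Epcam, with a log2 change of -0.26 (limma adjusted p = 0.0552), and Upk3b, with 0.05 (limma adjusted p = 0.899), did not pass. The summed FPKM of the 8 markers was 74.7 to 83.8 on PD14, 69.1 to 74.4 on PD15 and 56.0 to 62.1 on PD16. This sum was thus below PD14 without overlap already on PD15, when the Fxyd6 libraries still overlapped those of PD14. Ovgp1, the oviduct glycoprotein, was under 1 FPKM in every library. The summed FPKM of 8 oocyte markers was 939 to 986 on PD16 against 989 to 1230 on PD14, and 6 of 8 were lower with a median log2 change of -0.25, of which 0 were called. Bmp15 was called higher, with a log2 change of 0.39. From PD15 to PD16 all 8 oocyte markers were lower, with a median log2 change of -0.38, and 1 was called. The part of these cells in the level of Fxyd6 was not tested.

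**Figure D3:**
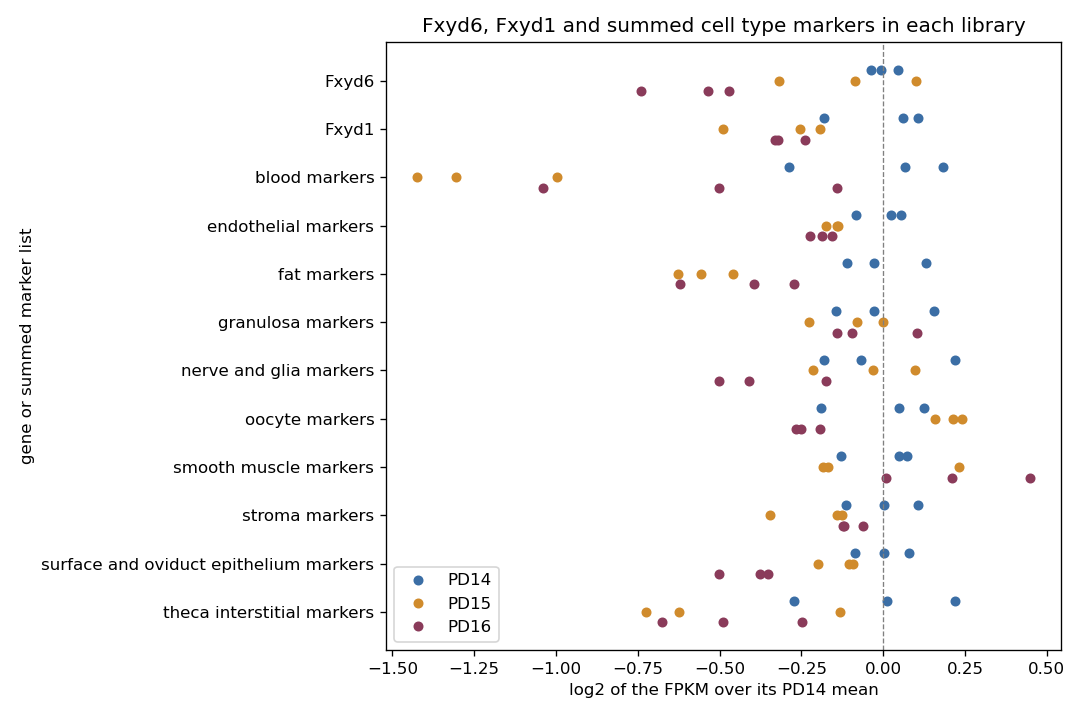
Fxyd6, Fxyd1 and the summed FPKM of each marker list, as log2 of the value over its PD14 mean (horizontal axis), with a point for each library. Epithelial markers on PD16 and Fxyd6 on PD16 both lie below all of their PD14 values, as do Fxyd1 and the endothelial, fat and oocyte markers. Smooth muscle markers reach their highest sum, 445 FPKM, on PD16, but their PD16 libraries overlap those of PD14 and PD15.

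Fxyd1 encodes phospholemman, a pump regulator and kinase target known from heart and skeletal muscle. It was at 13.1, 15.9 and 15.5 FPKM on PD14, at 10.6, 12.4 and 13.0 FPKM on PD15 and at 12.6, 11.8 and 11.8 FPKM on PD16. Every library of PD15 and PD16 was thus lower than every library of PD14, although the gap between 13.1 and 13.0 FPKM was small. The log2 change was -0.28 on PD15 (SE 0.09, limma adjusted p = 0.192) and -0.27 on PD16 (SE 0.09, limma adjusted p = 0.115) against PD14, and neither passed. Between PD16 and PD15 it was 0.01 with a 95% interval of -0.19 to 0.22. The summed FPKM of 6 endothelial markers moved in parallel, with 70.8 to 77.8 on PD14, 66.3 to 68.1 on PD15 and 64.2 to 67.3 on PD16. All 6 endothelial markers were above 1 FPKM, and Tie1 was called lower on PD16 than on PD14. The blood markers were at 107 to 148 FPKM on PD14 and at 48.6 to 65.5 FPKM on PD15, with 1 of 7, Hba-a1, called lower, and at 63.5 to 118 FPKM on PD16, which overlapped PD14. The fat markers, of which 5 of 6 were under 1 FPKM throughout, summed to 7.33 to 8.67 on PD14, to 5.14 to 5.77 on PD15 and to 5.15 to 6.55 on PD16. Most of this sum was Plin1, a coat protein of lipid droplets, which was called lower on PD15 (log2 change -0.60, limma adjusted p = 0.0377) and on PD16 (-0.50, limma adjusted p = 0.0294) than on PD14. The stroma markers, at 555 to 646 FPKM on PD14, 473 to 550 on PD15 and 552 to 575 on PD16, and the epithelial markers given above were also below PD14 without overlap on PD15. The theca and interstitial markers, at 1573 to 2209 FPKM on PD14, 1149 to 1731 on PD15 and 1189 to 1599 on PD16, overlapped PD14. On PD15, 6 of these 7 were lower than on PD14 and 1 was higher, with a median log2 change of -0.41, and 0 were called. The part of these cells in the level of Fxyd1 was not tested.

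The other markers called were of granulosa cells, smooth muscle and oocytes. From PD14 to PD16, Amh, a granulosa cell hormone, rose by 0.47 on the log2 scale, Cyp19a1, the estrogen synthase, fell by 0.84, and Cnn1, a smooth muscle protein, rose by 0.61. Zp2, a protein of the egg coat, fell by 0.61 from PD15 to PD16, and Zp3, another, was called in the F test alone (limma adjusted p = 0.0482).

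Fxyd5 encodes dysadherin, which modulates the pump and cell adhesion. Its FPKM was 1.21, 1.36 and 1.52 on PD14, 1.11, 1.05 and 1.35 on PD15, and 1.63, 1.64 and 1.64 on PD16. The PD16 libraries were higher than all others and nearly equal. Only 105 to 175 fragments stood behind each value, so counting error alone was 7.56% to 9.76%, while the PD16 libraries differed by an SD of 0.285% of their mean. The agreement of the PD16 libraries was therefore closer than counting error would give on average. The log2 change was 0.28 from PD15 to PD16 (SE 0.09, limma adjusted p = 0.211) and 0.16 from PD14 to PD16 (SE 0.09, limma adjusted p = 0.351). It did not pass in limma, and the exact permutation test among the 3 days gave an unadjusted p = 0.0393. That exact p rose to between 0.0571 and 0.0893 without PD14 replicate 2, PD15 replicate 1 or 2, or any PD16 library.

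Among the β subunits, Atp1b1 encodes β1, the most widely expressed form, which also joins cells through its outer domain. It was at 16.7, 20.1 and 17.7 FPKM on PD14, at 17.9, 21.9 and 18.1 FPKM on PD15 and at 26.5, 20.9 and 23.4 FPKM on PD16. All PD16 libraries were higher than all PD14 libraries, but PD16 replicate 2 lay below the highest PD15 library. From PD14 to PD16 the log2 change was 0.36 (SE 0.11, 95% interval 0.12 to 0.60, limma adjusted p = 0.0903), which did not pass. From PD15 to PD16 it was 0.28 (SE 0.11, limma adjusted p = 0.278), and from PD14 to PD15 it was 0.08 (SE 0.11, limma adjusted p = 0.772).

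Fxyd6 and Atp1b1 changed places. Fxyd6 was at 1.31 to 1.66 times the FPKM of Atp1b1 in the PD14 libraries and at 1.21 to 1.40 times in the PD15 libraries. On PD16 it was at 0.690 to 0.891 times. The ratio was above 1 in all 6 libraries of PD14 and PD15 and below 1 in the 3 libraries of PD16, and it was not tested because the pair was picked after its values were seen.

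Atp1b3 encodes β3, a widely expressed form, and was the most abundant of the 6 genes. It was at 73.3, 73.2 and 73.9 FPKM on PD14, at 81.5, 83.5 and 79.7 FPKM on PD15 and at 81.3, 82.4 and 72.9 FPKM on PD16. The PD15 libraries were higher than all PD14 libraries, whereas PD16 replicate 3 fell below the PD14 libraries. From PD14 to PD15 the log2 change was 0.15 (SE 0.06, 95% interval 0.01 to 0.29, limma adjusted p = 0.303), and from PD14 to PD16 it was 0.10 (SE 0.06, limma adjusted p = 0.373). Neither passed. Oocyte markers summed to 1258 to 1334 FPKM on PD15, above the 989 to 1230 FPKM of PD14, but to 939 to 986 FPKM on PD16, below PD14, and their part in the level of Atp1b3 was not tested.

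Atp1b2 encodes β2, known as an adhesion molecule on glia. It was at 50.5, 51.5 and 46.1 FPKM on PD14, at 49.7, 48.1 and 43.7 FPKM on PD15 and at 49.1, 48.2 and 45.4 FPKM on PD16. The libraries of all days overlapped. From PD14 to PD16 the log2 change was -0.05 with a 95% interval of -0.21 to 0.10 (limma adjusted p = 0.696), and from PD14 to PD15 it was -0.06 with an interval of -0.22 to 0.09. A change larger than 0.22 in either direction was outside both of these intervals.

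The libraries of 2 days did not overlap for 2 of the 6 genes between PD15 and PD14, Atp1b3 being higher and Fxyd1 lower on PD15, where 20.6% of all genes tested did not overlap. Between PD16 and PD14 they did not overlap for 4 of 6, with Atp1b1 and Fxyd5 higher and Fxyd1 and Fxyd6 lower on PD16, where the share over all genes was 28.5%. Between PD16 and PD15 they did not overlap for 2 of 6, Fxyd5 being higher and Fxyd6 lower on PD16, where it was 19.6%. With 3 libraries against 3, the exact permutation test could not go below p = 0.1, and that value was reached by each of these genes. Among the 3 days the unadjusted exact p was 0.0679 for Atp1b1, 0.593 for Atp1b2, 0.107 for Atp1b3 and 0.0571 for Fxyd1.

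The mixture within each family was examined as the share of each gene in the summed FPKM. The β subunits summed to 141 ± 3.54 FPKM on PD14, 148 ± 6.01 FPKM on PD15 and 150 ± 7.67 FPKM on PD16 (SD, n = 3). Atp1b3 took 52.1%, 55.1% and 52.6% of this sum on PD14, PD15 and PD16. Atp1b2 took 35.0%, 31.9% and 31.7%, and Atp1b1 took 12.9%, 13.0% and 15.7%. The exact permutation test among the 3 days gave p = 0.0464 for Atp1b2, p = 0.1 for Atp1b1 and p = 0.121 for Atp1b3, and after adjustment over these 3 shares none passed (all at 0.121).

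The FXYD genes summed to 43.1 ± 0.918 FPKM on PD14, 38.5 ± 4.67 FPKM on PD15 and 31.8 ± 2.04 FPKM on PD16 (SD, n = 3). Fxyd6 took 62.5 ± 3.12% of this sum on PD14, 65.7 ± 2.23% on PD15 and 56.8 ± 1.91% on PD16. Its PD16 libraries, at 57.8%, 58.0% and 54.6%, were below all others. Fxyd1 took 34.3%, 31.2% and 38.0% on PD14, PD15 and PD16, and Fxyd5 took 3.16%, 3.07% and 5.17%. The exact permutation test among the 3 days gave p = 0.0107 for Fxyd6, p = 0.0286 for Fxyd5 and p = 0.0321 for Fxyd1, and all were at 0.0321 after adjustment over these 3 shares, which add up to 100% and are not independent. With all FXYD genes in the denominator, among them Fxyd7 with a mean of 1.76 FPKM, the share of Fxyd1 no longer passed (exact p = 0.0643). A larger share of Fxyd1 on PD16 than on PD14 thus stood beside a lower level of Fxyd1, because the sum was lower. The number of shares that passed was 0 without PD14 replicate 3, PD15 replicate 1, 2 or 3, or PD16 replicate 3.

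**Figure D4:**
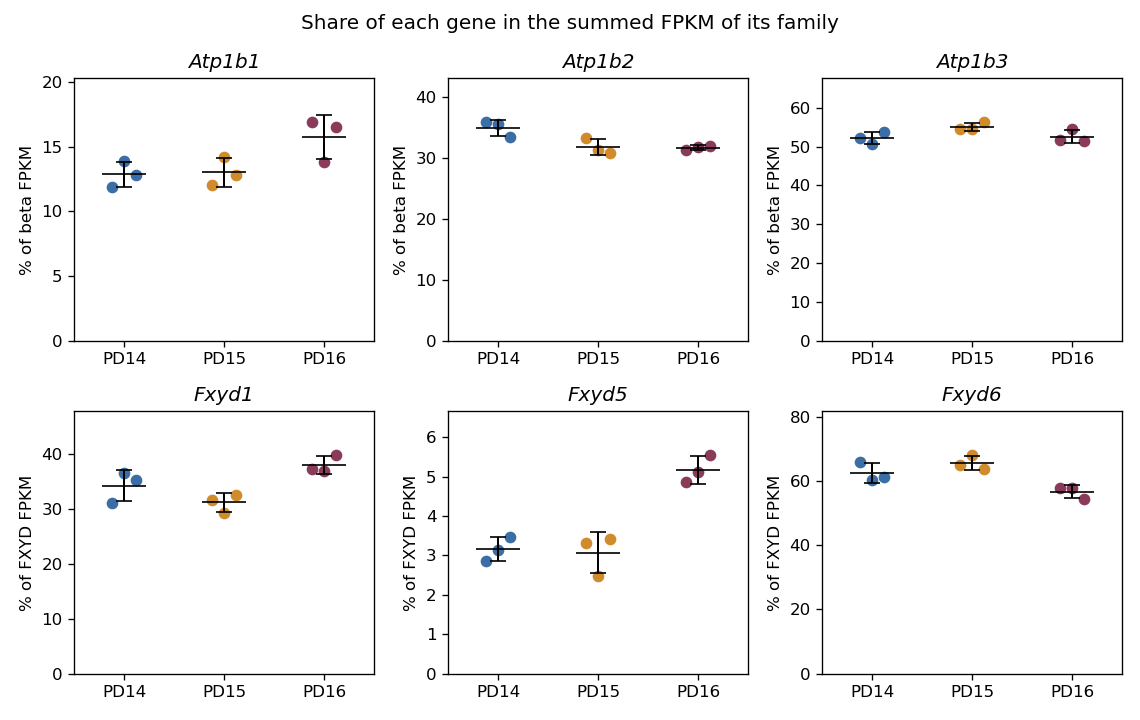
Share of each gene in the summed FPKM of the 3 β subunits (upper row) or of the 3 FXYD genes (lower row), in percent (vertical axes, from 0), by day, with points for libraries, long bars for the mean and whiskers for the SD of 3 libraries. The Fxyd5 share is 4.85% to 5.55% in the PD16 libraries and at most 3.48% in all others.

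Other genes of the pump and its surroundings were counted from lists. Of 13 other pump genes, 4 were tested and 0 were called in limma in any of the 3 comparisons. Among them Fxyd7, the neighbour of Fxyd5 and Fxyd1, was at 1.21 to 2.61 FPKM. Nkain4, which encodes a protein that interacts with the pump, was at 3.52 to 6.93 FPKM. Its log2 change from PD14 to PD16 was -0.48 (SE 0.15, limma adjusted p = 0.101), which did not pass. Of the 4 tested, 2 were higher and 2 lower on PD16 than on PD14. The median log2 change of the tested genes of this list from PD14 to PD16 was -0.01, and that of all genes tested was 0.01.

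The serum and glucocorticoid kinase Sgk1, which raises sodium transport by acting on channels and the pump, was called in the same fits. It was at 5.24, 5.12 and 4.48 FPKM on PD14, at 6.56, 5.75 and 6.54 FPKM on PD15 and at 9.48, 12.6 and 11.3 FPKM on PD16. Each day lay above the one before without overlap. Between PD15 and PD14, where 20.6% of all genes tested did not overlap, the log2 change of 0.29 did not pass (SE 0.10, limma adjusted p = 0.216). The log2 change from PD14 to PD16 was 1.02 (SE 0.10, limma adjusted p = 0.00419) and that from PD15 to PD16 was 0.73 (SE 0.10, limma adjusted p = 0.0223). In its list of 18 membrane anchors, kinases and other genes, 16 were tested and 2 were called higher and 0 lower on PD16 than on PD14. The second was Ank1, an ankyrin that ties membrane proteins to spectrin, with a log2 change of 0.59 (limma adjusted p = 0.0449). It was at 0.449, 0.759 and 0.392 FPKM on PD14 and at 1.47, 1.03 and 1.41 FPKM on PD16. Its mean exceeded the filter of 1 FPKM on PD15 and PD16 but not on PD14. Ank1 was thus tested only through its later days, so its call as higher is not independent of the filter.

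Of 24 sodium, potassium and chloride channels and carriers, 18 were tested and 1 was called lower and 0 higher from PD14 to PD16. This gene was Slc12a7, a potassium and chloride cotransporter, with 20.7, 22.1 and 20.6 FPKM on PD14 and 15.8, 15.8 and 14.7 FPKM on PD16. Its log2 change was -0.43 (SE 0.06, limma adjusted p = 0.0106). Of 10 subunit genes of related ion pumps of the same enzyme class, 6 were tested and 1 was called higher. This was Atp2a2, the calcium pump of the endoplasmic reticulum, with a log2 change of 0.30 (limma adjusted p = 0.0411). The median log2 changes from PD14 to PD16 were 0.02 for the channels and carriers, -0.13 for the related pumps and -0.01 for the list of anchors and kinases. These counts of 1 of 18, 1 of 6 and 2 of 16 stand against 4.25% of all genes tested, and with so few genes nothing particular to the lists is read from them.

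For each gene, the protein-coding genes with the most similar course over the 9 libraries were sought among 12485 genes by Pearson's r of log2(FPKM + 1), as a description. For Fxyd6 these were Dennd3 (r = 0.98), Efna1 (r = 0.95) and Tmem35a (r = 0.94). Fxyd1 was closest to Homer3 (r = 0.98), Def6 (r = 0.96) and Rgs5 (r = 0.95). Fxyd5 was closest to Tmcc2 (r = 0.98), Lrch2 (r = 0.97) and Pik3ip1 (r = 0.94). For Atp1b1 they were Tjap1 (r = 0.94), Rad50 (r = 0.93) and Slc38a5 (r = 0.93), and for Atp1b3 they were Kif4 (r = 0.95), Tmem183a (r = 0.94) and Rrm1 (r = 0.93). Atp1b2, whose days overlapped, was closest to Tulp3 (r = 0.90), Vps51 (r = 0.89) and Atxn7l3 (r = 0.89). None of the 6 genes was among the closest 3 of another, and each of the 6 had a gene with r of at least 0.90 among the many compared over only 9 libraries, where libraries of a day share that day.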

How the data were processed

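RNA of ovaries was extracted with TRIzol. The libraries came from the NEBNext Ultra kit, and an Illumina HiSeq was used for sequencing. The authors deposited FPKM for each library, and the submitters' processing notes name HISAT2 2.0.5 and mm10. The counting tool is not given in the sources used here. FPKM were used as deposited. Depth was derived from the step of a single fragment with exon lengths of GENCODE M21, where 96.1% to 96.9% of low values came out whole within 0.05 of a fragment. Counting errors cover counting only.

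Tests covered genes whose mean FPKM exceeded 1 on any day and used limma 3.58.1 (R 4.3.3) on log2(FPKM + 1) with an intensity trend, all 9 libraries in 1 model, two-sided, with Benjamini-Hochberg adjustment. A fold on this scale understates that of low genes. Exact permutation tests used Python 3.11.15. Those of 3 libraries against 3 were two-sided and used SciPy 1.17.1. Those among the 3 days counted the groupings whose sum of squares among the days was at least as large as that observed. The procedure was tested on simulated data. The genes and lists were chosen with earlier results of these data known. By rule, all 6 genes, called genes of the lists, pump genes above 1 FPKM and the 3 most similar genes were named. Some genes of the pump are not reported here. The alternatives changed the pseudocount, the filter, the scaling or the limma fit, added a replicate block, or left out a library.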

Additional observations from a re-analysis of the deposited data

How the results depend on the processing

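Fxyd6 between PD16 and PD14 kept its direction under every alternative run, and the call was kept under other pseudocounts, an FPKM minimum of 5, both scalings, both other limma settings, library quality weights and the fit of only these 2 days. Without a filter, 0 of the 6 genes were called between PD16 and PD14 (Fxyd6 adjusted p = 0.0676) or among the 3 days (0.106), and without the intensity trend 0 were called among the days (0.0521). The numbers of all genes called depended more on the settings. Without a filter they were 29 for PD15 against PD14, 172 for PD16 against PD14, 24 for PD16 against PD15 and 95 among the days, against 105, 659, 113 and 469 as reported. With an FPKM minimum of 5, 63 were called for PD15 against PD14. Scaling each library to the same total gave 397 for PD16 against PD14 and 309 among the days. Library quality weights gave 184 for PD15 against PD14, 237 for PD16 against PD15 and 878 among the days, and with these weights Atp1b2 was at a log2 change of -0.0025 for PD16 against PD15 instead of 0.01. Fits of only the 2 days compared gave 46 for PD15 against PD14 and 320 for PD16 against PD14. The cause of these differences was not tested.

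Samples with the same replicate number did not deviate together, with correlations of -0.21 to 0.16 against -0.20 to 0.21 for other numbers. These correlations show no shared deviation over all genes and cannot tell whether the ovaries were paired. With the replicate block, 0 of the 6 genes were called for PD16 against PD14 (Fxyd6 adjusted p = 0.0567) or among the days (0.0837), and over all genes 24 were called for PD15 against PD14, 227 for PD16 against PD14, 56 for PD16 against PD15 and 127 among the days.

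With each library left out in turn, 0 to 1 of the 6 genes were called for PD16 against PD14 and 0 to 1 among the days. Over all genes, 3 to 92 were called for PD15 against PD14, 93 to 666 for PD16 against PD14, 14 to 125 for PD16 against PD15 and 74 to 352 among the days. The number of FXYD shares that passed ran from 0 to 3. The number of genes with an unadjusted exact p under 0.05 among the days ran from 0 to 3 against 2 as reported. This last alternative was chosen after seeing the data. Log2 changes near 0 turned sign: for PD15 against PD14 Atp1b1 ran from -0.0067 to 0.15 and Fxyd6 from -0.19 to 0.0073, and for PD16 against PD15 Atp1b2 ran from -0.0396 to 0.0512, Atp1b3 from -0.0822 to 0.0048 and Fxyd1 from -0.0690 to 0.0676. With all FXYD genes in the denominator, the share of Fxyd1 had an exact p = 0.0643 and no longer passed. Fxyd5, with 105 to 175 fragments per library, is the gene whose level is most limited by depth.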
